A study of Mus musculus with 27 samples.

Results

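The transcripts described here are those of 49 genes of the lysosome, chosen by name from the 43460 gene names of a count table of mouse epididymal white adipose tissue. They were put into 6 classes: 12 glycosidases and sulfatases, 8 lipid hydrolases, activators and phosphatases, 9 cathepsins and other peptidases, 7 genes of the lysosomal membrane with progranulin, 10 subunits of the V-ATPase proton pump, and the 3 MiT regulators Tfeb, Tfe3 and Mitf. All 49 passed the filter on low counts, as did 17821 names of the table, and the rule is by name alone, although the names were put together with earlier results of these data known.

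Lysosomes break down proteins, glycans, lipids and nucleic acids with hydrolases that work at acid pH. The acid is supplied by the V-ATPase, a rotary pump with a cytosolic V1 sector that hydrolyses ATP and a membrane V0 sector that carries protons. TFEB, TFE3 and MITF, relatives of the MiT family, are transcription factors that bind E-box letters in promoters of many lysosomal genes. In obese fat, lysosome-rich macrophages gather around dying adipocytes and take up lipid, and adipocytes hold lysosomes of their own.

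The study followed C57BL/6N mice through weight gain, loss and regain, and 27 RNA libraries make up 9 groups of 3. Mice of 5 weeks of age form the initial group. Gain8 had been on a high-fat diet (60% of energy as fat) for 8 weeks, and control8 on normal diet for as long, both at 13 weeks of age. The loss group was returned to normal diet for 4 weeks after the high-fat diet and was taken at 17 weeks, beside control12 with 12 weeks of normal diet. The last 4 groups were taken at 21 weeks: maintenance with 8 weeks of normal diet after high-fat feeding, regain with 4 weeks of high-fat diet after weight loss, gain4 with 4 weeks of high-fat diet, and control16 with 16 weeks of normal diet. The sources used here do not say when in its 16-week treatment period gain4 received the high-fat diet. No library carries a genetic change, the fat pad was sequenced whole, and the labels do not say that replicates are separate animals. The p-values below therefore set group differences against the spread between these libraries only. That spread may be technical in part, and its source was not tested. Pairs of replicates differed by 11.1 to 491 chi-square per degree of freedom, more than read sampling alone gives.

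Levels are counts scaled to library size (CPM, with TMM factors), and a gene is said to be called, or to have risen or fallen, where edgeR's quasi-likelihood test gave a Benjamini-Hochberg adjusted p under 0.05 over all 17821 names. Libraries held 26479773 to 32728594 counts. The adipocyte list of 12 markers summed to between 9774 and 64679 CPM, so the labelled tissue was seen in every library. Loss library 1 stood apart, with the highest macrophage sum (12689 CPM over 14 markers) and the lowest adipocyte sum (9774 CPM) of all 27. Maintenance library 3 held liver transcripts, with Alb at 5233 CPM against at most 80.9 CPM in any other library, and had the lowest macrophage sum, 701 CPM. The loss values without loss library 1, and the maintenance values without maintenance library 3, are given below for the members that carry the results. Efferent duct and epididymis markers (7) summed to 23.5, 75.3 and 15.5 CPM in control8, 122 CPM in control12 library 3 and 42.9 CPM in maintenance library 3. All other libraries held at most 8.86 CPM. Sperm markers (5) summed to 57.0 CPM in gain8 library 2, 42.4 CPM in control12 library 3 and 46.0 CPM in maintenance library 3, and at most 17.8 CPM elsewhere.

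The 8 letters TCACGTGA form the palindromic core that MiT factors bind in lysosomal promoters, and CACGTG is the wider E-box inside it. RefSeq promoters (GRCm38.p6, 250 bases before to 50 after each start) were at hand for 42 of the 49 members, not for Asah1, Ctsb, Ctsh, Atp6v0d2, Atp6v1b2, Atp6v1c1 and Atp6v1h. TCACGTGA was found in 7 of the 42 (16.7%), against 304 of 27025 genes (1.12%) and 0.974% of 32851 promoters. CACGTG, which every TCACGTGA also counts toward, was found in 14 of the 42 (33.3%), against 8.09% of genes and 7.15% of promoters. Both motifs read the same on either strand. The sites of the 7 genes, with 30 bases each, are shown because these members differ widely in how they behave below. Capitals mark the match, and letters run 5′ to 3′ on the gene's strand.
Gla, chrX:134601215-134601244, minus strand: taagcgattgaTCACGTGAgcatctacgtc
Gla, chrX:134601182-134601211, minus strand: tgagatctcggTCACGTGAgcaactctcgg
Ctsd, chr7:142387908-142387937, minus strand: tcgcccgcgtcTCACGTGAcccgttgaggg
Ctsa, chr2:164833743-164833772, plus strand: gaacaatgagcaaactgTCACGTGAtgcag
Ctsa, chr2:164833766-164833795, plus strand: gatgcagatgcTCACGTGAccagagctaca
Cln3, chr7:126583340-126583369, minus strand: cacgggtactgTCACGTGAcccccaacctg
Mcoln1, chr8:3500462-3500491, plus strand: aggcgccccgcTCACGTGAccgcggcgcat
Atp6v0d1, chr8:105566050-105566079, minus strand: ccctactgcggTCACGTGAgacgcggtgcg
Atp6v1a, chr16:44139373-44139402, minus strand: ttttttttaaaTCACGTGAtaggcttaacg
The sites of Gla began 228 and 195 bases before the start of transcription, that of Ctsd 99 bases before it and that of Atp6v1a 132 bases before it. The Atp6v0d1 match began 4 bases before the start and runs across it. In the GENCODE annotation the Ctsa, Cln3, Ctsd and Mcoln1 windows overlap exons of their own genes, the Gla windows overlap an exon of the neighbouring gene Hnrnph2, and the other 2 overlap no exon. By class the 8 letters were in 1 of 12 glycosidases, 0 of 7 lipid hydrolases, 2 of 7 cathepsins, 2 of 7 membrane genes, 2 of 6 pump subunits and 0 of 3 MiT regulators with a promoter. A match is a description of these letters, not of binding, which was not measured.

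After 8 weeks of high-fat diet the lysosomal transcripts rose broadly. Of the 49 members, 33 rose against control8 and 0 fell, where 12% of all tested genes rose and 9.52% fell. The median log2 change of the members was 0.88, against -0.01 for all genes. Every class took part, with 8 of 12 glycosidases, 4 of 8 lipid hydrolases, 8 of 9 cathepsins, 4 of 7 membrane genes, 8 of 10 pump subunits and 1 of 3 MiT regulators. Of the 33 calls, 28 held whichever library of the 2 groups was left out.

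At 4 weeks after the return to normal diet most of these transcripts were still high. Against control12, 37 members rose and 1, Acp5, fell, beside 11.8% and 8.24% of all genes. The median was 0.88, and 31 members were called higher both here and after 8 weeks of high-fat diet. When the change in loss was tested against the change in gain8, 0 of 49 members passed with edgeR or with DESeq2, and 3 had an unadjusted p under 0.05. Of all genes 0% passed with edgeR, 1231 had an unadjusted p under 0.05, and DESeq2 called 16 higher and 17 lower. Loss library 1 carried part of the size. Without it 25 members were called, the median fell to 0.63, and 25 calls held whichever library was left out. Over all genes 908 rose and 277 fell without it, against 2096 and 1468 with it. Among the hydrolases the log2 changes without it were 1.78 for Gusb, 1.13 for Hexa, 0.93 for Galc, 1.196 for Pla2g15, 1.19 for Ctsb and 1.25 for Ctsz. Among membrane genes and regulators they were 0.66 for Lamp1, 0.75 for Grn, 1.05 for Cln3, 0.99 for Tfeb and 0.94 for Mitf. Among pump subunits they were 0.82 for Atp6v0c, 4.70 for Atp6v0d2, 1.13 for Atp6v1a, 1.46 for Atp6v1b2 and 0.96 for Atp6v1c1. All of these remained called.

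At 8 weeks after the return no member was called in maintenance, where 0% of all genes were called by edgeR, 3633 had an unadjusted p under 0.05, and DESeq2 called 643 higher and 186 lower. At that unadjusted p there were 10 members, 8 of them higher, and DESeq2 called 3. The median was 0.02, and 0.10 without maintenance library 3, where again no member was called. The libraries of this group differed: the mean log2 CPM of the 49 members was 6.98 and 6.93 in libraries 1 and 2, above the 6.80, 6.68 and 6.90 of control16, and 6.68 in library 3. The change in maintenance was smaller than the change in loss for 21 members and larger for 0 by the test of that difference, with 5.66% of all genes called in that direction. That count was 6 without loss library 1, and 6 of the 21 calls (Gusb, Hexa, Gla, Galc, Psap and Laptm5) held whichever library was left out. Over all genes the count in that direction went from 1009 to 394 without loss library 1.

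In gain4, with 4 weeks of high-fat diet and no weight loss named in its labels, fewer members were called. Against control16, 12 members rose and 0 fell, beside 3.8% and 2.02% of all genes, and the median was 0.48. These calls depended on single libraries: 0 were left without control16 library 1 or without control16 library 2, 6 without gain4 library 3 and 8 without gain4 library 2. The calls over all genes did as well: 0 were left without control16 library 1, and 2 higher and 1 lower without control16 library 2. With gain4 library 3 left out 725 genes rose and 320 fell, and with gain4 library 2 left out 342 rose and 123 fell.

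After regain 35 members rose against control16 and 0 fell, beside 12.5% and 9.23% of all genes, with a median of 0.89. Against maintenance 35 rose and 0 fell, beside 13.9% and 13% of all genes. The maintenance, gain4 and regain comparisons share the control16 libraries. Of the 35 calls against control16, 28 held whichever library was left out, and of the 35 against maintenance 26 did. Between 5 and 13 weeks of age on normal diet (control8 against initial) 0 members were called by edgeR or DESeq2 and 4 had an unadjusted p under 0.05, while 0.359% of all genes were called higher and 0.365% lower.

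**Figure D1:**
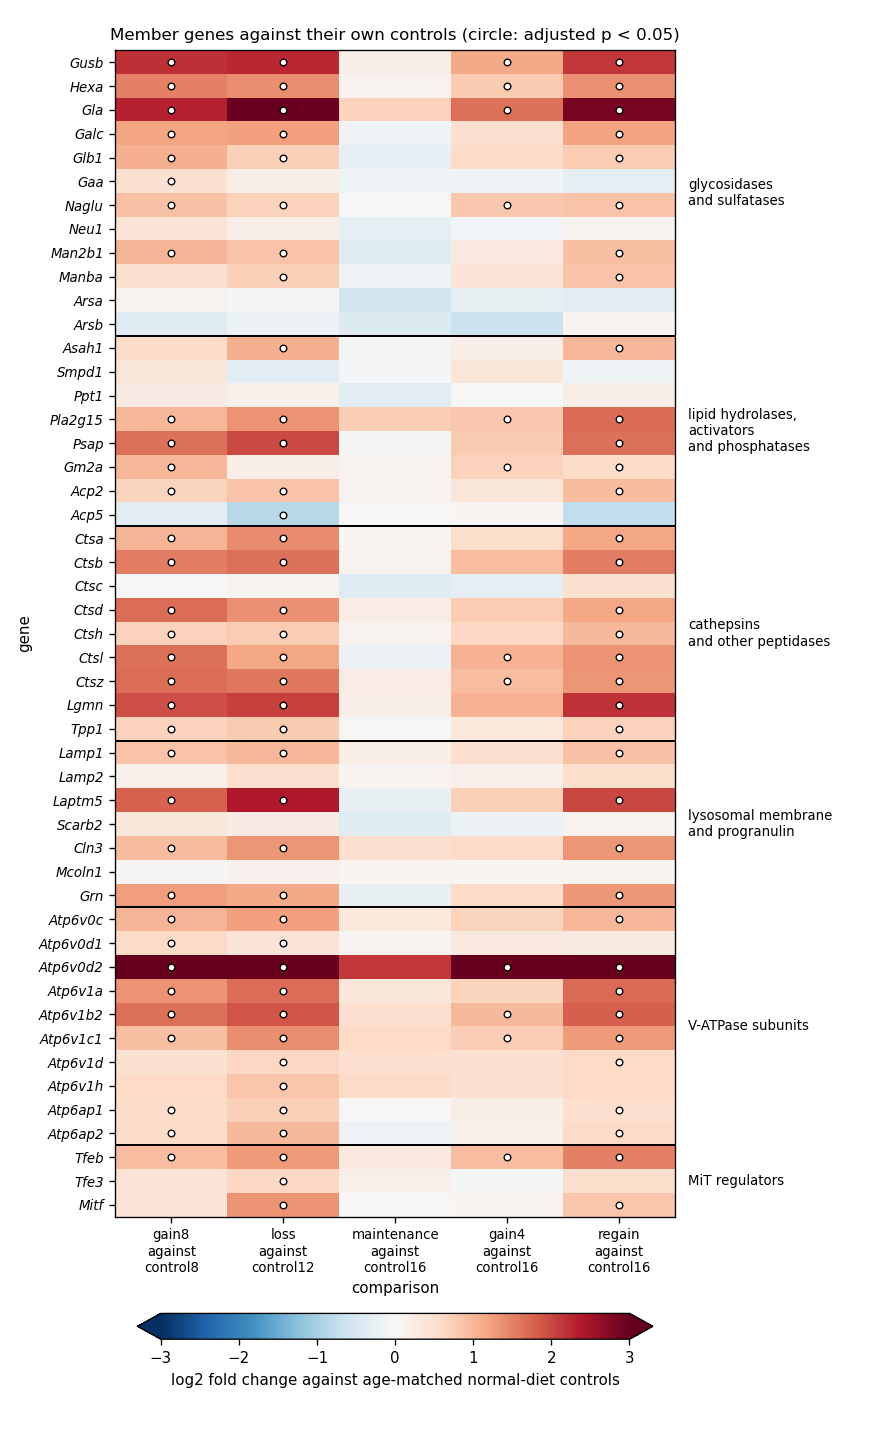
Log2 fold change of each of the 49 members (rows, by class) in the 5 comparisons with age-matched normal-diet controls (columns). Colour gives the change, cut at 3 in either direction, and a circle marks an adjusted p under 0.05. The gain8, loss and regain columns hold 33, 38 and 35 circles, the gain4 column 12 and the maintenance column 0.

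Lysosomal glycosidases remove sugars from glycoproteins, glycolipids and proteoglycans one at a time. Gusb, beta-glucuronidase (ENSMUSG00000025534, chr5:129989011-130003049, minus strand, GRCm38), stood at 61.9, 67.6 and 55.2 CPM in the control8 libraries and at 282, 281 and 281 CPM in gain8. It stood at 106, 86.7 and 71.0 CPM in control12 and at 654, 264 and 338 CPM in loss. None of these treated libraries came near its controls. The log2 fold change was 2.19 ± 0.25 (SE, adjusted p = 3.68e-05) in gain8 and 2.25 ± 0.25 (adjusted p = 2.27e-05) in loss.

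In maintenance Gusb was back at 96.1, 97.5 and 89.1 CPM, with control16 at 81.9, 75.1 and 90.3 CPM, and the groups overlapped. It reached 138, 181 and 222 CPM in gain4 and 309, 371 and 389 CPM in regain. Each regain library thus stood above each gain4 library, with a log2 difference of 0.98 ± 0.24 (adjusted p = 0.032).

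Gla, alpha-galactosidase A, which trims galactose from globotriaosylceramide and carries a pair of TCACGTGA sites, changed by more than Gusb in loss and regain, a difference between genes that was not tested. It went from 6.57, 8.11 and 7.38 CPM in control8 to 34.3, 39.5 and 36.4 CPM in gain8, and from 8.48, 7.26 and 10.6 CPM in control12 to 121, 36.7 and 48.8 CPM in loss. Regain libraries held 66.4, 53.7 and 56.9 CPM. The log2 changes were 2.32 ± 0.32 in gain8 (adjusted p = 0.000138), 2.97 ± 0.33 in loss (adjusted p = 2.27e-05) and 2.84 ± 0.33 in regain (adjusted p = 2.23e-05). Without loss library 1 the change in loss was 2.28.

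Hexa, the alpha chain of beta-hexosaminidase, rose in gain8 by 1.51 ± 0.20 (adjusted p = 0.000106) and in regain by 1.38 ± 0.20 (adjusted p = 6.67e-05). Galc, galactosylceramidase, rose by 1.18 to 1.22 in gain8, loss and regain. Naglu, which cuts N-acetylglucosamine from heparan sulfate, went from 31.1, 33.9 and 46.2 CPM in control16 to 65.1, 63.7 and 65.8 CPM in gain4. It rose there by 0.81 ± 0.13 (adjusted p = 0.0082). That was the smallest adjusted p of any member in gain4, and the call was lost without control16 library 1 or 2.

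The class was not uniform. Neuraminidase 1 (Neu1) and the sulfatases Arsa and Arsb were called in none of the comparisons with age-matched controls, and their group means stayed between 45.6 and 72.6, between 49.6 and 72.4, and between 25.4 and 45.0 CPM. Gaa, acid alpha-glucosidase, rose in gain8 by 0.45 ± 0.16 (adjusted p = 0.047), a call that was lost on leaving out any of 5 of the 6 libraries, and it was not called in the other groups. Arsb shares 39.9% of its exonic bases with genes on the opposite strand, so its counts are uncertain where the counting did not use strand.

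Saposins, activator proteins and lipid hydrolases work together on sphingolipids and phospholipids. Psap, the saposin precursor and the most abundant member per length (1608 FPKM on average over the 27 libraries, where FPKM scales fragments by transcript length and library size), stood at 1886, 2063 and 1715 CPM in control8 and at 6217, 6364 and 5226 CPM in gain8. In loss it stood at 16906, 5359 and 6463 CPM, and in regain at 6978, 7558 and 9004 CPM, against 2177 to 2613 CPM in control12 and 2193 to 2658 CPM in control16. Every one of these treated libraries lay above its controls. The log2 change was 1.65 ± 0.30 in gain8 (adjusted p = 0.000735), 1.97 ± 0.30 in loss (adjusted p = 0.000154) and 1.66 ± 0.30 in regain (adjusted p = 0.000488). Without loss library 1 the change in loss was 1.27.

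Pla2g15, a lysosomal phospholipase A2, rose in gain8 (0.99 ± 0.19), loss (1.35 ± 0.19), gain4 (0.81 ± 0.19) and regain (1.69 ± 0.19, adjusted p = 1.98e-05). In maintenance it stood at 85.1, 69.9 and 81.3 CPM, above all control16 libraries at 41.0, 40.9 and 60.9 CPM. With a log2 change of 0.73 ± 0.19 and an adjusted p of 0.059, it had the smallest adjusted p of the members in maintenance and was not called. Without maintenance library 3 the change was 0.74. Its call in gain4 was lost without control16 library 1 or 2 or gain4 library 3.

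Gm2a, the GM2 activator that works with beta-hexosaminidase, rose in gain8, gain4 and regain and was not called in loss. In gain8 it went from 199, 174 and 213 CPM to 374, 380 and 408 CPM (0.99 ± 0.20, adjusted p = 0.0014). In loss it stood at 250, 274 and 192 CPM, overlapping control12 at 253, 206 and 163 CPM. In gain4 it rose by 0.68 ± 0.19 (adjusted p = 0.043) and in regain by 0.56 ± 0.19 (adjusted p = 0.044), calls that were lost on leaving out any of 4 single libraries in either comparison. The difference between its changes in loss and gain8 was -0.79 ± 0.27 and did not pass the test (adjusted p = 0.59).

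Acp5, tartrate-resistant acid phosphatase, is a marker of osteoclasts and of some macrophages, and it was the only member called lower than age-matched controls. In gain8 it held 338, 271 and 292.5 CPM, below control8 at 364, 367 and 385 CPM, and was not called. Acp5 held 544, 466 and 266 CPM in control12 and 177, 340 and 197 CPM in loss, groups that overlap. It fell there by 0.84 ± 0.27 on the log2 scale (adjusted p = 0.036). The call was lost without loss library 1 or 3 or control12 library 1 or 2, with values between -1.19 and -0.63. In regain it held 278, 266 and 170 CPM against 378, 310 and 512 CPM in control16, where the groups did not overlap and the log2 change of -0.75 ± 0.27 was not called (adjusted p = 0.054). Sphingomyelinase (Smpd1) and palmitoyl-protein thioesterase (Ppt1) were not called in any comparison with age-matched controls.

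Cathepsins are the main lysosomal proteases, some with a cysteine and some with an aspartate at the active site. Ctsb, a cysteine cathepsin, stood at 1858, 1812 and 2261 CPM in control8 and at 5233, 6296 and 5691 CPM in gain8, a log2 change of 1.54 ± 0.28 (adjusted p = 0.000818). In loss it held 11618, 5812 and 5272 CPM against 3101, 2425 and 1735 CPM in control12 (1.65 ± 0.29, adjusted p = 0.000416). All gain8 and loss libraries lay above their controls. Ctsz changed by 1.68 ± 0.25 in gain8, 1.59 ± 0.25 in loss and 1.32 ± 0.25 in regain.

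Lgmn, legumain, an asparaginyl endopeptidase that activates cathepsins, had the largest change of the class. It stood at 144, 136 and 156 CPM in control8 and at 507, 644 and 510.2 CPM in gain8. In regain it held 794, 686 and 839 CPM against 174, 143 and 202 CPM in control16 (2.16 ± 0.38, adjusted p = 0.000423). In maintenance its libraries ran from 74.1 to 300 CPM, on both sides of control16.

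The panel genes Ctsd, an aspartic protease, and Ctsl, a cysteine protease, rose in gain8 by 1.67 ± 0.31 (adjusted p = 0.000992) and 1.65 ± 0.31 (adjusted p = 0.000883). In loss their log2 changes were 1.37 ± 0.31 (adjusted p = 0.0042) and 1.15 ± 0.30 (adjusted p = 0.011). Both calls were lost without loss library 1, where the changes were 0.82 and 0.69, and that of Ctsl also without control12 library 3. Ctsl rose in gain4, from 689, 567 and 879 CPM to 1380, 1004 and 2026 CPM (1.05 ± 0.30, adjusted p = 0.046), a call lost without any of gain4 library 1 or 3 and control16 library 1 or 2. In regain Ctsd rose by 1.16 ± 0.31 (adjusted p = 0.011), a call lost without control16 library 2, and Ctsl by 1.34 ± 0.31 (adjusted p = 0.0034). Ctsd shares 34.4% of its exonic bases with a gene on the same strand and Ctsl 26.8% with genes on both strands. Ctsc, dipeptidyl peptidase 1, which activates granule proteases, was not called in any comparison with age-matched controls and held group means of 157 to 291 CPM.

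Genes of the lysosomal membrane split in a similar way. Laptm5, a lysosomal transmembrane protein of haematopoietic cells, rose most: it stood at 116, 136 and 105 CPM in control8 and at 454, 433 and 322 CPM in gain8. In loss it held 1187, 373 and 465 CPM against 117, 117 and 151 CPM in control12, and in maintenance 147, 167 and 66.2 CPM against 156, 154 and 138 CPM in control16. The groups were apart in gain8 and loss and overlapped in maintenance. The log2 change was 1.76 ± 0.36 in gain8 (adjusted p = 0.0016) and 2.40 ± 0.36 in loss (adjusted p = 0.000136), and in regain 1.99 ± 0.36 (adjusted p = 0.00047). Without loss library 1 the change in loss was 1.71.

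Lamp1, the abundant glycoprotein of the lysosomal membrane, rose by 0.86 ± 0.19 in gain8, 1.003 ± 0.194 in loss and 0.87 ± 0.19 in regain. Progranulin (Grn), a secreted and lysosomal glycoprotein, rose by 1.25 ± 0.25, 1.13 ± 0.25 and 1.303 ± 0.245 in the same groups. Cln3, a membrane protein mutated in Batten disease, rose by 0.95 ± 0.21, 1.33 ± 0.21 and 1.33 ± 0.21. Lamp2, Scarb2 (the receptor that brings glucocerebrosidase to lysosomes) and the calcium channel Mcoln1 were called in none of the comparisons with age-matched controls. Mcoln1 was among the evenest members: its group means lay between 42.2 and 50.4 CPM, its log2 changes in gain8, loss, gain4 and regain between 0.04 and 0.13 with SEs of 0.13, although its promoter holds TCACGTGA.

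**Figure D2:**
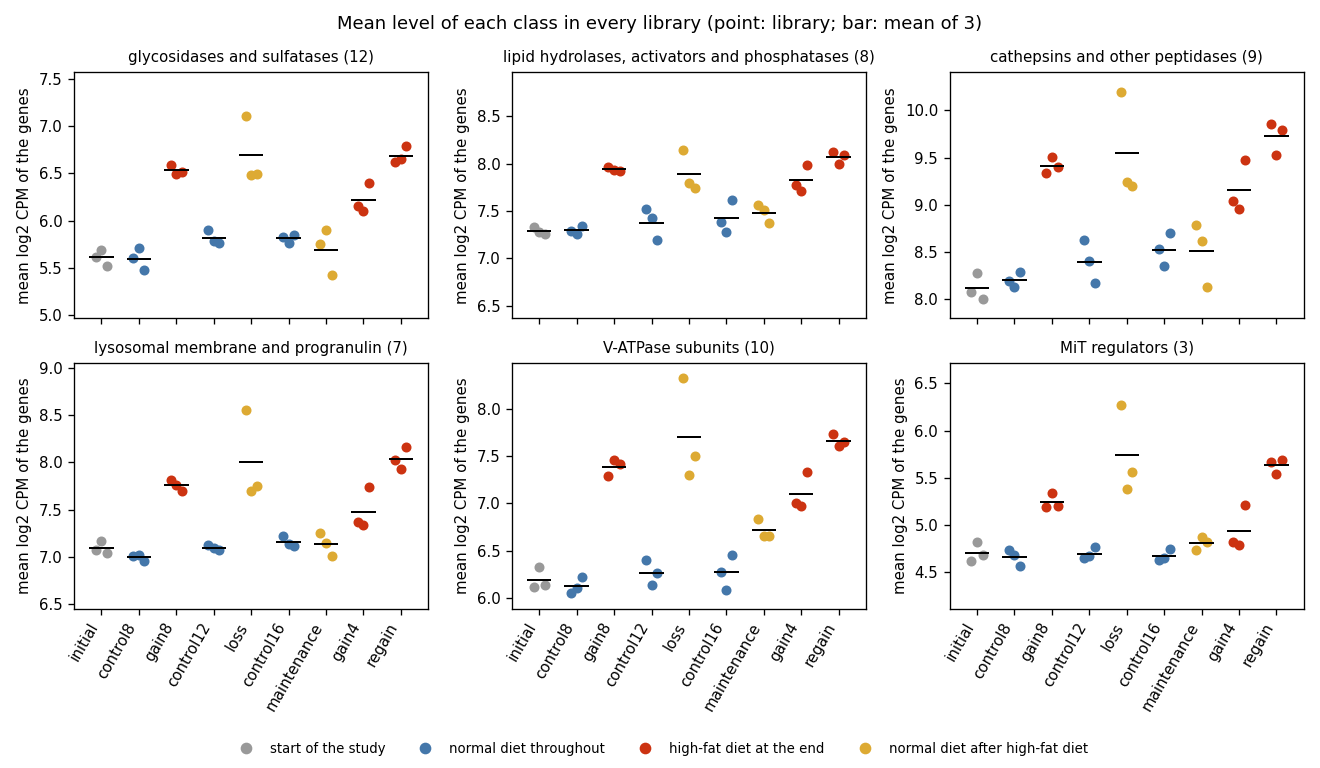
Mean log2 CPM over the genes of each class (vertical axes, all spanning the same range) in every library of the 9 groups. Points are libraries and bars are means of 3, and the number of genes stands in each title. Gain8, loss and regain lie above their controls in each class, loss library 1 is the highest point of each, and maintenance lies above all control16 libraries in the V-ATPase panel.

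Among the subunits of the proton pump the d subunit, which joins the V0 ring to the central stalk, is encoded by the widely expressed Atp6v0d1 and by Atp6v0d2, known from osteoclasts, macrophages and kidney. The 2 genes behaved differently (Atp6v0d1, ENSMUSG00000013160, chr8:105524465-105566047, and Atp6v0d2, ENSMUSG00000028238, chr4:19876841-19922605, both minus strand). Atp6v0d2 stood at 4.60, 6.79 and 7.25 CPM in control8 and at 182, 207 and 192 CPM in gain8. It stood at 7.32, 3.02 and 16.3 CPM in control12 and at 450.2, 211 and 253 CPM in loss. The log2 change was 4.96 ± 0.80 in gain8 (adjusted p = 0.00033) and 5.09 ± 0.80 in loss (adjusted p = 0.000184), the largest of any member.

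In regain Atp6v0d2 held 360.4, 278 and 297 CPM against 5.02, 3.58 and 14.8 CPM in control16 (5.32 ± 0.81, adjusted p = 0.000118). In gain4 it held 56.7, 80.5 and 167 CPM (3.70 ± 0.76, adjusted p = 0.014), a call lost without control16 library 1 or 2. Library 3 of each control group had the highest control level, and without it the log2 changes were 5.88 in loss, 6.15 in regain and 4.58 in gain4. In maintenance the libraries were split, at 55.9, 40.9 and 5.12 CPM, with the lowest in library 3 among the controls. The log2 change there was 2.12 ± 0.71 and was not called (adjusted p = 0.11). Without library 3 it was 2.67 and was not called either (adjusted p = 0.27).

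Atp6v0d1 moved little in comparison. It rose from 103, 103 and 104 CPM in control8 to 148, 160.3 and 152 CPM in gain8 (0.57 ± 0.13, adjusted p = 0.0037). Its log2 change was 0.38 ± 0.13 in loss (adjusted p = 0.040), a call lost without loss library 1 or control12 library 2 or 3. It was not called in gain4 (0.29 ± 0.13) or regain (0.26 ± 0.13). Per length, on the deposited FPKM scale, Atp6v0d2 made up 2.87%, 4.19% and 4.39% of the sum of both d subunits in control8 and 44.9%, 46.0% and 45.6% in gain8. In loss the share was 62.5%, 50.1% and 56.1%, in maintenance 23.5%, 17.5% and 2.36%, in gain4 20.3%, 24.8% and 43.5%, and in regain 61.1%, 54.9% and 58.3%. The transcript of the rarer form thus exceeded that of the common form in all loss and regain libraries.

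**Figure D3:**
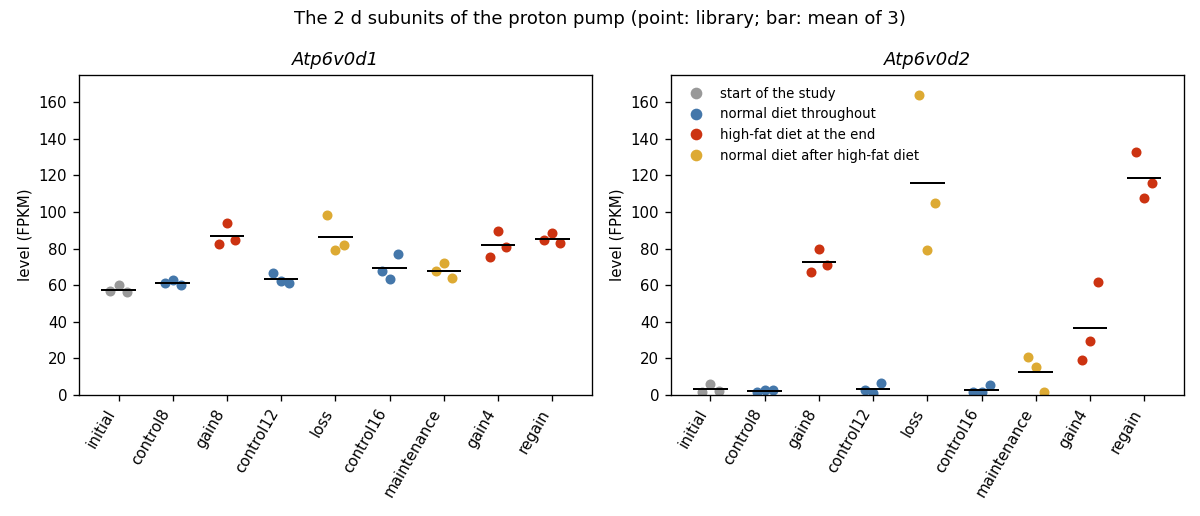
Level per length (FPKM, linear axes with the same range) of Atp6v0d1 and Atp6v0d2 in every library of the 9 groups. Points are libraries and bars are means of 3. Atp6v0d1 stays between 56.2 and 98.3 FPKM throughout, while Atp6v0d2 runs from 1.06 to 164 FPKM.

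The other pump subunits were expressed in all groups and rose by smaller factors. Atp6v1b2, the B subunit of the V1 sector, rose from 126, 120.5 and 135 CPM in control8 to 355, 448 and 393 CPM in gain8 (1.65 ± 0.24, adjusted p = 0.00016), by 1.88 ± 0.24 in loss (adjusted p = 3.94e-05), by 0.97 ± 0.23 in gain4 and by 1.79 ± 0.24 in regain (adjusted p = 4.27e-05). The gain4 call was lost without gain4 library 3 or control16 library 1 or 2. Atp6v1a, the catalytic A subunit, rose by 1.34 ± 0.30 in gain8, 1.68 ± 0.31 in loss and 1.71 ± 0.31 in regain. Atp6v1c1, the C subunit, rose by 0.91 ± 0.20, 1.40 ± 0.21 and 1.28 ± 0.21.

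Atp6v0c, the proton-carrying ring subunit, rose by 1.02 ± 0.21 in gain8, 1.24 ± 0.21 in loss and 1.01 ± 0.21 in regain. The accessory subunits Atp6ap1 and Atp6ap2 rose by 0.50 to 0.57 in gain8 and regain, but those calls were lost on leaving out any single library. In loss they rose by 0.705 and 0.97. The loss call of Atp6ap2 held whichever library was left out, and that of Atp6ap1 was lost without loss library 1. Atp6v1h, the H subunit, rose in loss by 0.83 ± 0.23, a call lost without loss library 1 or control12 library 3.

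In maintenance 6 of the 10 pump subunits, Atp6v0c, Atp6v1a, Atp6v1b2, Atp6v1c1, Atp6v1d and Atp6v1h, had every library above every control16 library, beside 8.1% of all tested genes. Of the other 39 members Pla2g15, Cln3 and Tfeb did so. For Atp6v1b2 the maintenance libraries held 240.3, 195 and 217 CPM against 156, 131 and 173 CPM in control16 (0.50 ± 0.23, adjusted p = 0.23). For Atp6v1c1 they held 74.3, 64.1 and 98.5 CPM against 53.0, 48.9 and 55.8 CPM (0.59 ± 0.20, adjusted p = 0.12). None of the 6 was called. In all of them except Atp6v1b2 the highest value was in library 3, the one with liver transcripts. Without that library the log2 changes were 0.32 for Atp6v0c, 0.16 for Atp6v1a, 0.55 for Atp6v1b2, 0.44 for Atp6v1c1, 0.43 for Atp6v1d and 0.26 for Atp6v1h.

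The MiT regulators differed from each other. Tfeb (ENSMUSG00000023990, chr17:47737030-47792419, plus strand) stood at 13.5, 15.7 and 12.8 CPM in control8 and at 25.0, 28.2 and 26.7 CPM in gain8 (0.93 ± 0.21, adjusted p = 0.0043). It held 48.9, 27.01 and 32.7 CPM in loss against 11.7, 15.1 and 18.2 CPM in control12 (1.27 ± 0.21, adjusted p = 0.000333), and 34.7, 36.7 and 38.9 CPM in regain against 11.9, 14.3 and 12.3 CPM in control16 (1.52 ± 0.22, adjusted p = 6.85e-05). Each treated library lay above its controls. In gain4 it held 17.3, 33.7 and 22.2 CPM (0.93 ± 0.21, adjusted p = 0.021), a call lost without gain4 library 2 or control16 library 1 or 2.

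Mitf (ENSMUSG00000035158, chr6:97807052-98021349, plus strand) stood at 31.6, 33.4 and 29.7 CPM in gain8 against 24.9, 22.1 and 24.3 CPM in control8, a log2 change of 0.41 ± 0.27 that was not called (adjusted p = 0.28). In loss it held 78.9, 36.8 and 42.3 CPM against 20.9, 18.3 and 22.4 CPM (1.36 ± 0.27, adjusted p = 0.0014). It was called in loss and not in gain8, but the difference between those changes, 0.95 ± 0.38, did not pass the test (adjusted p = 0.63). In regain it held 53.4, 37.2 and 40.4 CPM (0.83 ± 0.27, adjusted p = 0.030), a call lost on leaving out any library of the 2 groups except regain library 2. In gain4 it held 25.0, 14.5 and 36.9 CPM, on both sides of control16.

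Tfe3 (ENSMUSG00000000134, chrX:7762560-7775202, plus strand) had the smallest changes of the 3 in loss and regain, and it was the most abundant of the 3 per length, with 6.68 FPKM on average against 4.88 for Mitf and 3.97 for Tfeb. Its log2 change was 0.41 ± 0.19 in gain8, 0.62 ± 0.19 in loss (adjusted p = 0.025), -0.03 ± 0.19 in gain4 and 0.52 ± 0.19 in regain. The loss value was the only one called, and it was lost without loss library 1 or control12 library 2 or 3, with 0.36 at the lowest. In maintenance the log2 changes of Tfeb, Tfe3 and Mitf were 0.29, 0.14 and 0.00, and 0.25, 0.03 and 0.22 without maintenance library 3. These are transcript levels, and the activity of MiT proteins is set largely by phosphorylation and movement into the nucleus, which RNA does not show.

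Re-feeding for 4 weeks after weight loss was compared directly with gain4, at the same age. In regain 10 members were higher than in gain4 and 0 were lower, where 4.12% of all genes were called higher and 1.36% lower. The median difference of the members was 0.45, against 0.02 for all genes. The 10 were Gusb, Gla and Galc among the glycosidases, Asah1, Pla2g15 and Acp2 among the lipid hydrolases, Laptm5 and Cln3 of the membrane, and the pump subunits Atp6v1a and Atp6v1b2. No cathepsin and no MiT regulator was called.

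Gla held 20.9, 22.9 and 34.2 CPM in gain4 and 66.4, 53.7 and 56.9 CPM in regain, a log2 difference of 1.18 ± 0.31 (adjusted p = 0.037). Laptm5 held 198, 242 and 291 CPM in gain4 and 507, 524 and 752 CPM in regain (1.29 ± 0.35, adjusted p = 0.039). Pla2g15 held 65.0, 85.1 and 100.4 CPM and then 148, 128 and 184 CPM (0.88 ± 0.19, adjusted p = 0.028). In all 3 genes each regain library was above each gain4 library, as it was in 27 of the 49 members, beside 14.6% of all tested genes.

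Naglu, Ctsl and Atp6v0d1 had overlapping groups and were not called. Naglu differed by 0.06 ± 0.13, Atp6v0d1 by -0.03 ± 0.13 and Ctsl by 0.29 ± 0.30. In Lamp1 (0.37 ± 0.19), Tfeb (0.59 ± 0.21), Tfe3 (0.56 ± 0.19), Mitf (0.78 ± 0.27) and Atp6v0d2 (1.62 ± 0.69) every regain library was the higher, and the differences were not called. The difference in Atp6v0d2, with its larger SE, exceeded that of every called member. Ctsd (0.40 ± 0.31) and Acp5 (-0.80 ± 0.27) were not called either. The count was small and sensitive to single libraries: no member was called without regain library 3, gain4 library 1 or gain4 library 2, 4 were without regain library 1, 6 without regain library 2, and 16 without gain4 library 3. The counts over all genes moved too: 0 were called without regain library 3 or gain4 library 1, and 1 without gain4 library 2. Those higher and lower were 699 and 177 without regain library 1, and 526 and 70 without regain library 2. Without gain4 library 3 they were 1484 and 856. In gain4 library 3 the mean log2 CPM of all 49 members was 7.53, against 7.21 and 7.16 in the other libraries of that group and 7.71 to 7.86 in regain.

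**Figure D4:**
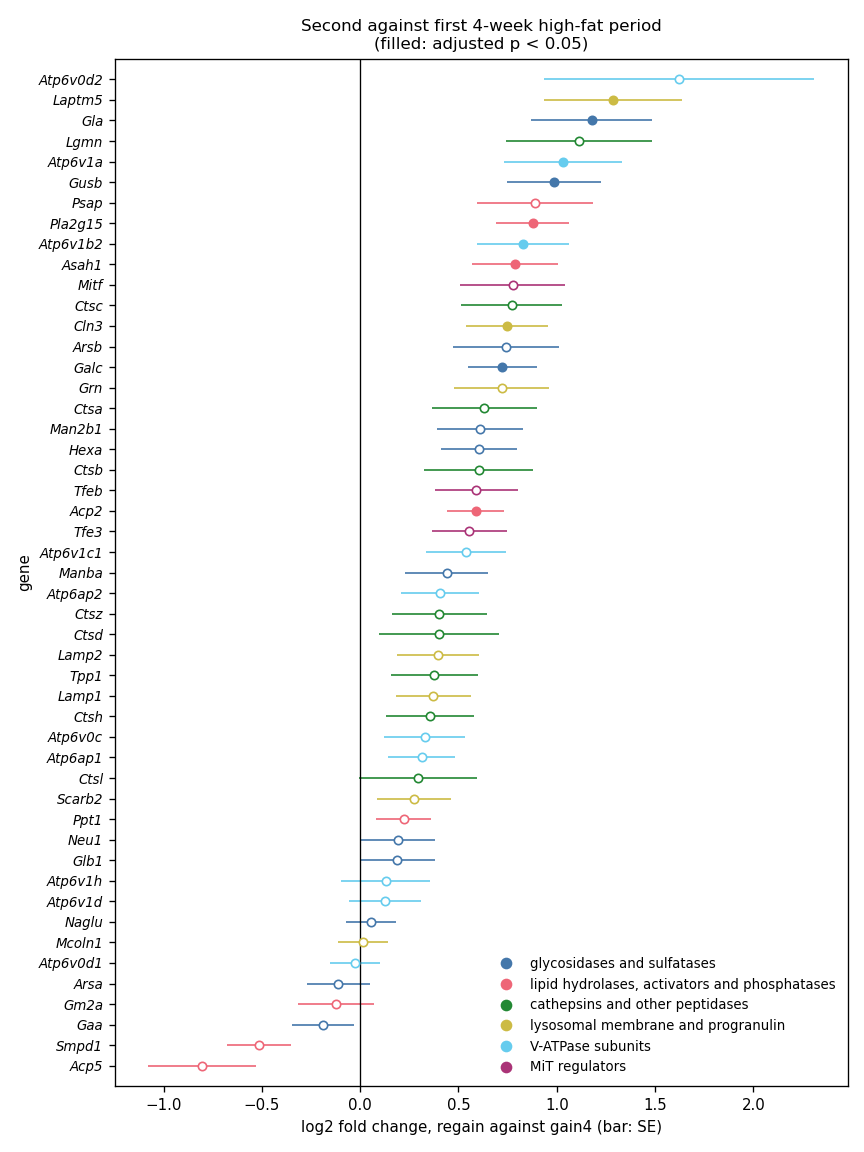
Log2 difference between regain and gain4 for the 49 members (horizontal axis, with SE bars), ordered by size and coloured by class. Filled points have an adjusted p under 0.05. The 10 filled points lie between 0.59 and 1.29, and 5 of the 6 members furthest below 0 belong to the hydrolase classes while none of them is filled.

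Set against maintenance, re-feeding was followed by higher levels in every class. Gusb was higher by 1.92 ± 0.25 (adjusted p = 2.61e-05), Pla2g15 by 0.96 ± 0.19, Lgmn by 1.99 ± 0.38, Laptm5 by 2.23 ± 0.36 and Tfeb by 1.22 ± 0.21 (adjusted p = 0.000339). All 9 cathepsins and peptidases were called, including Ctsc (0.85 ± 0.26, adjusted p = 0.018), whose call was lost without regain library 3 or maintenance library 2. The calls of Ctsd and Tpp1 were lost without regain library 1 or 3 or maintenance library 1 or 2. Atp6v0d2 was higher by 3.20 ± 0.73 (adjusted p = 0.0032). Atp6v0d1, Atp6v1d and Atp6v1h were not called, at 0.19, 0.09 and 0.01. Without maintenance library 3, 34 members were called, the calls of Atp6ap2 and Mitf were lost, and the values were 1.84 for Gusb, 0.95 for Pla2g15, 1.57 for Lgmn, 1.88 for Laptm5, 1.27 for Tfeb and 2.65 for Atp6v0d2.

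Many macrophage transcripts moved with the lysosomal ones, while several of resident macrophages fell. Of 14 macrophage markers tested, 13 rose in gain8, 12 in loss, 0 in maintenance, 3 in gain4 and 13 in regain. Their summed level was 1218 to 1632 CPM in control8 and 4441 to 5087 CPM in gain8, 1168 to 1486 CPM in control12 and 4398 to 12689 CPM in loss. It was 1608 to 2031 CPM in control16, 701 to 2767 CPM in maintenance, 2227 to 4317 CPM in gain4 and 4673 to 9359 CPM in regain. None of the 14 was at 0 in all libraries. Of a list of 9 genes of macrophages laden with lipid, which includes Trem2 and Gpnmb, 9, 8, 0, 6 and 8 rose in the same comparisons. Of all tested genes 12%, 11.8%, 0%, 3.8% and 12.5% rose in them.

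Of 7 markers of resident macrophages 4 fell and 0 rose in gain8, 3 fell and 1 rose in loss, 0 were called in maintenance or gain4, and 4 fell and 2 rose in regain. Of all tested genes 9.52% fell in gain8, 8.24% in loss, 0% in maintenance, 2.02% in gain4 and 9.23% in regain.

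Between gain4 and regain 5 of the 14 macrophage markers rose, with a median log2 difference of 1.42, beside 4.12% of all tested genes called higher. Every call of this comparison was lost without regain library 3 or gain4 library 1, and 1 gene of all was called without gain4 library 2. None of the 9 genes of lipid-laden macrophages was called, although their median was 1.48. In all 9 every regain library was above every gain4 library, beside 14.6% of all tested genes. Of 6 markers of T and NK cells 4 rose, with a median of 1.62. Their summed level was uneven, at 31.6, 11.1 and 76.8 CPM in regain against 7.64, 10.5 and 8.21 CPM in gain4. Of 12 adipocyte markers 3 fell and 1, Lep, rose in gain8, 5 fell in loss and 5 fell in regain. Of all tested genes 9.52% fell and 12% rose in gain8, 8.24% fell in loss and 9.23% fell in regain. The adipocyte sum was 26743, 22409 and 18240 CPM in regain and 49247, 49574 and 35879 CPM in gain4. Every regain library was thus below every gain4 library. In whole tissue a change in the number of cells of a type cannot be told apart from a change of RNA per cell, and the part of macrophage or adipocyte content in the lysosomal changes was not tested.

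Of 6 osteoclast markers, looked at because Atp6v0d2, Acp5 and Mitf are known from that cell, 5 could be tested. The fusion genes Dcstamp and Ocstamp rose in gain8 by 2.84 ± 0.64 and 3.46 ± 0.66, with Dcstamp at 7.06 ± 1.28 CPM (SD, n = 3) in gain8 and 15.9 ± 12.4 CPM in loss. Nfatc1 and Oscar were not called, and the protease gene Mmp9 fell by 2.65 in gain8. The most abundant marker of the list in both groups, Nfatc1, held 36.4 CPM on average in gain8 and 35.4 CPM in control8.

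**Figure D5:**
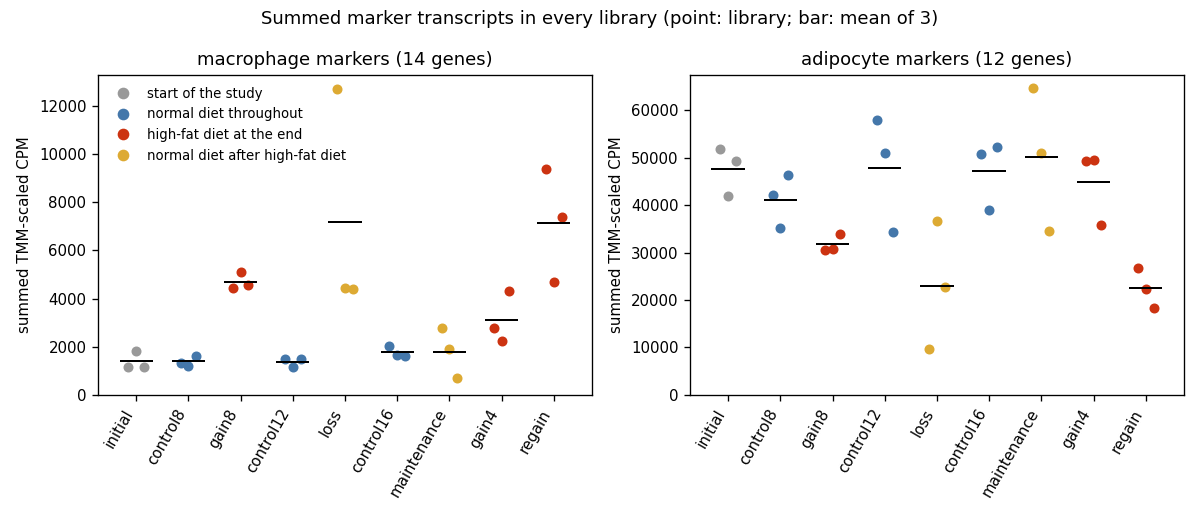
Summed CPM of 14 macrophage markers and of 12 adipocyte markers in every library of the 9 groups, on linear axes from 0. Points are libraries and bars are means of 3. Macrophage sums reach 4441 CPM or more in every gain8 and regain library, and loss library 1 has the highest macrophage sum and the lowest adipocyte sum.

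Other genes of the pathway, from lists that leave out the 49 members, gave smaller shares of rising genes in gain8, loss and regain, though not all did in gain4. Of 31 other lysosomal enzymes and transporters 16 rose in gain8, 16 in loss, 0 in maintenance, 5 in gain4 and 14 in regain. Of all tested genes 12%, 11.8%, 0%, 3.8% and 12.5% rose in the same comparisons, and 9.52%, 8.24%, 0%, 2.02% and 9.23% fell. These shares stand beside the lists that follow as well. Lipa, lysosomal acid lipase, which hydrolyses cholesteryl esters and triglycerides, rose from 91.4 ± 14.1 CPM (SD, n = 3) in control8 to 529 ± 16.7 CPM in gain8 (2.53 ± 0.36, adjusted p = 0.000162). It was at 839 ± 63.9 CPM in regain and 282 ± 131 CPM in gain4 (1.57 ± 0.35, adjusted p = 0.029), a call lost without regain library 3 or gain4 library 1 or 2. Ctsk, a cathepsin known from osteoclasts, rose in loss from 22.7 ± 7.05 to 359 ± 257 CPM (3.98 ± 0.45, adjusted p = 2.65e-05), and the change was 3.21 without loss library 1.

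Of 11 other pump subunits tested, 6 rose in gain8, 5 in loss, 3 in gain4 and 4 in regain, and 1 fell in loss and in regain. Tcirg1, the a3 subunit of V0 known from osteoclasts and macrophages, rose from 49.9 ± 4.25 to 210.0 ± 50.7 CPM in gain8 (2.07 ± 0.36, adjusted p = 0.000591), by 2.80 ± 0.38 in loss and by 2.40 ± 0.37 in regain. Like Atp6v0d2, it is a form of its subunit with restricted expression.

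Another list held genes that carry enzymes to lysosomes. Of its 9 genes 3 rose and 1 fell in gain8, 2 rose and 1 fell in loss, 1 rose in gain4, and 4 rose and 1 fell in regain. Of all tested genes 9.52%, 8.24% and 9.23% fell in gain8, loss and regain, so 1 fall among 9 genes is near the share of the whole table. Sort1, sortilin, was the gene that fell, by 0.62 ± 0.19 in gain8 (adjusted p = 0.023), a call lost without gain8 library 2 or 3 or control8 library 1 or 3. Igf2r, the large mannose 6-phosphate receptor, rose in regain from 126 ± 11.1 to 233 ± 17.2 CPM (0.89 ± 0.23, adjusted p = 0.0087).

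Of 20 genes that control MiT factors or are autophagy targets of theirs, 7 rose in gain8, 5 in loss, 0 in maintenance, 5 in gain4 and 9 in regain, where 1 fell. Gpnmb, which is on the lipid-laden macrophage list as well, went from 28.4 ± 3.68 to 899 ± 30.7 CPM in gain8 (4.98 ± 0.82, adjusted p = 0.00037). Fnip2, a partner of folliculin, rose by 1.70 ± 0.31 in gain8 and by 2.14 ± 0.32 in regain, and was higher in regain than in gain4 by 1.52 ± 0.31 (adjusted p = 0.028), a call lost without regain library 3 or gain4 library 1 or 2.

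The promoter letters were set beside these values as a description, and no difference between members with and without them was tested. Of all tested genes 12%, 11.8% and 12.5% rose in gain8, loss and regain, with median edgeR log2 changes of -0.017, -0.040 and -0.015. Of the 7 members with TCACGTGA, 6 rose in gain8, 6 in loss and 5 in regain, with median log2 changes of 1.03, 1.37 and 1.17. Of the 35 others with a promoter, 22, 24 and 24 rose, with medians of 0.70, 0.79 and 0.83. Among the 7 the log2 change in gain8 ran from 0.04 in Mcoln1 to 2.32 in Gla, so that members with the same 8 letters covered nearly the range of the others, whose values lay between -0.38 and 2.19.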

How the data were processed

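RNA-seq libraries came from whole epididymal fat, made with a TruSeq RNA kit, according to the protocols in the labels. The authors ran Trimmomatic 0.33, TopHat2 2.0.13 and HTSeq 0.6.0 on mm10 (GRCm38), per the submitters' processing notes. How strand was treated and which annotation was used are not given in the sources used here. The deposited table holds raw counts for genes in 43616 rows, of which 156 repeat a name with identical values and were used once. The authors' FPKM (22194 rows) were used for levels per length and in alternatives, with pseudocounts of 1 and 0.1. By GENCODE M21, 17 of the 49 members share exonic bases with another gene, 15 of them with one on the opposite strand.

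Names were kept with edgeR's filterByExpr (minimum count 10, minimum total 15), which left 17821. All 27 libraries entered 1 model with a mean per group (edgeR 4.0.16 in R 4.3.3, TMM, quasi-likelihood test), with Benjamini-Hochberg adjustment over all tested names in each of the 10 comparisons. Each SE is the log2 change divided by the root of its F statistic. For a list, the median is taken over differences of group means on the log2 CPM scale (prior count 2). The other settings tried were DESeq2 1.42.0, RLE scaling, no filter, limma 3.58.1 on the FPKM, only the compared groups, replicate number as a block, each library left out, 3 libraries out together (maintenance 3, loss 1, control12 3), and libraries divided at 1000 CPM of Lars2, whose level varied widely between libraries, into sets of 15 and 12. Like-numbered replicates were not paired: deviations of like-numbered libraries correlated between -0.18 and 0.38, with all 3 above 0.1 in none of 8 comparisons. The code was tested on simulated counts.

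The members and all lists were chosen with earlier results of these data known. In each comparison the text names up to 2 called members per class with the smallest adjusted p, any member called against the others, and 12 panel genes, with up to 3 called genes of each other list. Levels of any member may be given. Test values outside this rule (such as those of Galc, Gaa, Gm2a, Cln3, Atp6v0c, Atp6v1h, Atp6ap1, Atp6ap2 and Mcoln1 in some comparisons) were chosen after they were seen.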

Additional observations from a re-analysis of the deposited data

Results flagged for a closer look

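The change in maintenance against control16 was compared with the change in loss against control12 by the test of the difference itself (edgeR, adjusted p under 0.05 over all 17821 names), and 21 members passed, all with the smaller change in maintenance. The differences on the log2 scale were -2.059 for Gusb, -1.289 for Hexa, -2.267 for Gla, -1.318 for Galc, -0.960 for Glb1, -0.683 for Naglu and -1.245 for Man2b1 among the glycosidases. Among the lipid hydrolases they were -1.122 for Asah1, -2.001 for Psap and -0.765 for Acp2, and among the peptidases -1.362 for Ctsa, -1.529 for Ctsb, -1.357 for Ctsz and -1.879 for Lgmn. For the membrane genes Laptm5 and Grn they were -2.628 and -1.356, for the pump subunits Atp6v0c, Atp6v1b2 and Atp6ap2 -0.929, -1.380 and -1.132, and for Tfeb and Mitf -0.976 and -1.358. Without loss library 1, which had the highest macrophage sum and the lowest adipocyte sum, 6 members passed. The difference was below 0 for all 21 under each setting run.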

How the results depend on the processing

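No called result changed direction under any setting run. Members called in gain8 (33) numbered 0 with the high Lars2 libraries alone and 28 to 29 with single libraries left out. In loss (38) they numbered 0 with the low Lars2 libraries alone, 18 with only the compared groups and 25 to 39 with single libraries left out, 25 being without loss library 1. In maintenance (0) there were 3 with DESeq2 and 0 to 5 with single libraries left out, 5 being without maintenance library 2. Over all genes DESeq2 called 643 higher and 186 lower there, and edgeR 1687 and 612 without maintenance library 2. The high Lars2 set held only library 3 of the maintenance group, so no count is given for it. In gain4 (12) there were 32 without the 3 libraries, 0 with the low Lars2 libraries alone, 0 with only the compared groups and 0 to 15 with single libraries left out. In regain (35) there were 12 with the low Lars2 libraries alone. Between regain and gain4 (10) there were 1 with no filter, 20 with DESeq2, 19 and 16 with limma on FPKM at pseudocounts of 1 and 0.1, 27 without the 3 libraries, 0 with the low Lars2 libraries alone, 0 with only the compared groups and 0 to 16 with single libraries left out. Between regain and maintenance (35) there were 14 with only the compared groups. Between control8 and initial (0) there were 1 without the 3 libraries and 2 with only the compared groups, and the low Lars2 set held no initial library. For maintenance against loss (21) there were 5 without the 3 libraries, 0 with the low Lars2 libraries alone, 0 with only the compared groups and 6 to 30 with single libraries left out. The division by Lars2 and the fits of only the compared groups rest on fewer libraries, and for the other settings the cause was not tested. With replicate number as a block the counts were 33, 37, 0, 10, 36, 8, 37, 0, 0 and 19 in the order of the 10 comparisons (gain8, loss, maintenance, gain4, regain, regain against gain4, regain against maintenance, control8 against initial, loss against gain8, maintenance against loss). Of the values of single genes and medians, 2741 kept their side of the threshold or stayed within the spread, 593 lost their call and 21 moved. The member median for loss against gain8 (0.08) was -0.21 without loss library 1. Over all genes, DESeq2 called 1240 higher and 874 lower in gain4 (edgeR 677 and 360), 1388 and 784 between regain and gain4 (735 and 243), and 419 and 253 between control8 and initial (64 and 65). With only the compared groups they numbered 796 and 300 in loss, and 1126 and 454 between regain and maintenance. In gain4, and between regain and gain4, that setting gave 0 and 0. Without the 3 libraries there were 1823 and 801 in gain4, and 1577 and 1339 between regain and gain4. The median log2 change of all genes moved by at most 0.034 with RLE scaling and 0.068 with DESeq2 in the 10 comparisons.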
